A study of Mus musculus with 4 samples.

Results

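The 8 genes described here are the MHC class II genes H2-Aa, H2-Ab1, H2-Eb1, Cd74, H2-DMa, H2-DMb1, H2-DMb2 and Ciita, chosen by name from the 55472 entries of the gene table. They were followed in macrophages, in dendritic-like cells and in epithelial, fibroblast and endothelial cells that held no myeloid transcript, separately in each tumour. The question was whether the low counts outside myeloid cells differ from the background that free RNA and stray myeloid cells can leave in droplets. Single-cell RNA counts came from 4 mammary tumour samples of 3 female FVB mice aged 13 to 14 weeks. Tumour 1 was pooled from several glands of mouse 1, mouse 2 gave tumour 2 (inguinal), and mouse 3 gave both tumour 3 (thoracic) and tumour 4 (inguinal). Every mouse carried the MMTV-PyMT transgene, in which the MMTV promoter drives the polyoma middle T oncogene in mammary epithelium. Every mouse also carried K14Cre, whose promoter is active in basal epithelium, and a Rosa-tdTomato reporter. All 4 samples are tumours with these alleles, so there is no control group, and the comparisons below are between cell classes within tumours.

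MHC class II molecules present peptides from engulfed proteins to CD4+ T cells, and are best known on dendritic cells, macrophages and B cells. The alpha and beta chains (H2-Aa with H2-Ab1, and H2-Eb1 with an E alpha chain) assemble on the invariant chain, encoded by Cd74. The H2-DM heterodimer (H2-DMa with H2-DMb1 or H2-DMb2) exchanges the invariant chain fragment for peptide in the endosome. Ciita is the coactivator that switches the family on through the X and Y boxes of its promoters, and interferon gamma can induce it in epithelium, fibroblasts and endothelium.

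Of the 8 genes 6 lie in the MHC on chromosome 17 of GRCm38. H2-DMb2 (positions 34143307 to 34151555) and H2-DMb1 (34153072 to 34160230) are neighbours and paralogues on the plus strand. H2-DMa (34119541 to 34139101) overlaps Brd2 on the opposite strand and CR974462.3 on its own strand, so its counts are less certain. H2-Eb1 (34305867 to 34316674) overlaps the antisense gene Gm20513. Ciita lies on chromosome 16 (10480059 to 10528418) and overlaps Dexi on the other strand.

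RefSeq promoter windows of 300 bases (build GRCm38.p6) of 5 of the 8 genes were searched on both strands for an X box core and a Y box, ATTGG. H2-Ab1, Cd74 and Ciita were not searched. The X box core searched is the run of 11 capitals in the H2-DMb1 stretch shown here, with any base allowed at its positions 3, 4 and 7. An X box core was found in 0.968% of the 32851 promoters, a Y box in 37.4% and both in 0.387%. H2-DMb1 and H2-Eb1 held both. H2-Aa, H2-DMb2 and 1 of the 2 windows of H2-DMa held only a Y box by this search. An X box with other letters would be missed, so its absence from these promoters is not shown. The stretches around the X box are shown for the H2-DM beta pair, whose epithelial ratio to Cd74 exceeded the macrophage ratio most, and for H2-Eb1, the other gene with both motifs. Capitals mark the X box core. The stretches are chr17:34153093-34153122, chr17:34145122-34145151 and chr17:34305772-34305801, all on the plus strand. The H2-DMb1 and H2-DMb2 stretches lie inside the GENCODE spans of their own genes, so the 2 annotations place the gene start differently.
H2-DMb1: cctAGTAACTGATGatgctaggctgattca
H2-DMb2: cctattaaccgatgatgctaggctaagtca
H2-Eb1: actAGCAACTGATGatgctggactcctttg
Counted from 1 at the 5′ end with H2-DMb1 as the reference, the H2-DMb2 stretch differs by G5T and T10C within the core, and by G25A and T27G after it. T10C falls on a core position where any base was allowed, so only G5T kept this stretch from matching. The 250 bases before the starts of H2-Aa (chr17:34287824-34288073, minus strand) and H2-Eb1 (chr17:34305617-34305866, plus strand) are shown because these classical chains had very different levels. Capitals mark Y boxes on either strand and, in H2-Eb1, the X box core. All bases shown are of the reference build, not of the FVB mice, and whether they bear on the levels was not tested.
H2-Aa: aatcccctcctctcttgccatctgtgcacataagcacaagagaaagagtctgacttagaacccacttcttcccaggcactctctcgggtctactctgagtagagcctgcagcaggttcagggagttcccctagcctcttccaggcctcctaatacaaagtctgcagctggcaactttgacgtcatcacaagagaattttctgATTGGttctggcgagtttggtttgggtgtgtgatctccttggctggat
H2-Eb1: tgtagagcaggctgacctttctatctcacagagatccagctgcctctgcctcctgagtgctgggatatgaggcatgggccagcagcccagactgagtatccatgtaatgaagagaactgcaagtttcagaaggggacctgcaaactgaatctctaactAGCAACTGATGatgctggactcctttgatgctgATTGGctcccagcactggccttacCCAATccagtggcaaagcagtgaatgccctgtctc

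The libraries held 8434 to 9580 barcodes with 20281799 to 39370565 unique molecular identifiers (UMIs). Cells were gated on marker UMIs that include no class II gene. Macrophages had at least 5 UMIs of C1qa and C1qb, complement genes of tissue macrophages, and numbered 748, 515, 1038 and 812 in tumours 1 to 4. Dendritic-like cells had at least 2 UMIs of Cd209a, Clec10a and Napsa with at most 1 of C1qa and C1qb, and numbered 12, 27, 41 and 26. With no UMI of C1qa, C1qb, C1qc or Lyz2 there were 17071 epithelial, 1310 fibroblast, 698 endothelial and 275 T cell-gated cells over the 4 tumours. The T cell gate (Cd3d, Cd3e, Cd3g, Trbc2) served as the class that should lack class II. Of its cells 78.55% also held a UMI of the natural killer genes Nkg7, Klrb1c, Ncr1 or Gzmb, so they are called T cell-gated lymphocytes. Pairs of libraries shared 96 to 129 cell barcodes, 1.1% to 1.35% of a library. Each class held all of its own markers, on which it was gated. The further dendritic markers Flt3, Zbtb46 and Xcr1 were detected in dendritic-like cells while Ccr7 was at 0. Only 5.66% of these cells held a UMI of any of the 4. Epithelial markers were found in 42.45% of dendritic-like cells and in 39.32% of macrophages. Only 3 cells passed a B cell gate, so B cells could not be described.

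In macrophages the family was abundant in every tumour. Cd74 reached 13772, 20537, 12222 and 11268 CPM (UMIs scaled to the total of the class) in tumours 1 to 4, and 83.1% to 92.4% of macrophages held at least 1 of its UMIs. H2-Aa stood at 5890, 7165, 4659 and 4372 CPM. Tumour 2 was the highest of the 4 for both. H2-Ab1, which pairs with H2-Aa, had 4818 ± 1414 CPM (mean ± SD of 3 mice, tumours 3 and 4 summed). H2-Eb1 was far lower in counts, at 56.6 ± 17.9 CPM. These values are not per length, and the mapping of FVB reads to a C57BL/6 genome at polymorphic MHC genes was not tested.

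Dendritic-like cells had higher levels of the H2-DM genes and of Ciita than macrophages. H2-DMb2 was at 729, 304, 393 and 331 CPM in dendritic-like cells of tumours 1 to 4, against 125, 54.4, 44.6 and 40.7 in macrophages. The groups did not overlap, and the log2 fold change was 2.48 ± 0.29 (SE, edgeR quasi-likelihood test over 3 mice, Benjamini-Hochberg adjusted p = 1.3e-06). Ciita was at 133, 152, 68.8 and 202 CPM against 23.4, 40.5, 24.3 and 32.8, again without overlap, although these dendritic-like values rest on 2, 14, 7 and 14 UMIs. Its log2 fold change was 1.84 ± 0.38 (adjusted p = 0.00228). H2-DMa had 1126, 1033, 1415 and 1080 CPM against 403, 512, 348 and 323, a log2 fold change of 1.24 ± 0.21 (adjusted p = 0.000201). H2-DMb1 had 1126, 652, 934 and 591 CPM against 249, 387, 234 and 232, a log2 fold change of 1.20 ± 0.29 (adjusted p = 0.00852). H2-Eb1 rose by 1.24 ± 0.32 (adjusted p = 0.0193), in 2 of 3 mice, and its groups overlapped. In all, 5 of the 8 genes passed, all higher in dendritic-like cells, where 2.18% of the 6705 genes tested were called higher and 6% passed in either direction.

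The chains of the A molecule and the invariant chain did not pass in that comparison, although each was higher in 3 of 3 mice. Cd74 was at 29283, 24938, 34473 and 24255 CPM in dendritic-like cells, above every macrophage value, yet its log2 fold change was 0.47 ± 0.28 (adjusted p = 0.409). H2-Aa had a log2 fold change of 0.79 ± 0.25 (adjusted p = 0.0608). H2-Ab1 had 0.65 ± 0.25 (adjusted p = 0.138). H2-Aa passed in 6 of 14 alternative settings, H2-Ab1 in 3 and Cd74 in 0. Mouse 1 contributed only 12 dendritic-like cells. Without mouse 3 only H2-DMb2 still passed, 3 genes passed without mouse 1 and 3 without tumour 4, and 7 passed without mouse 2.

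**Figure D1:**
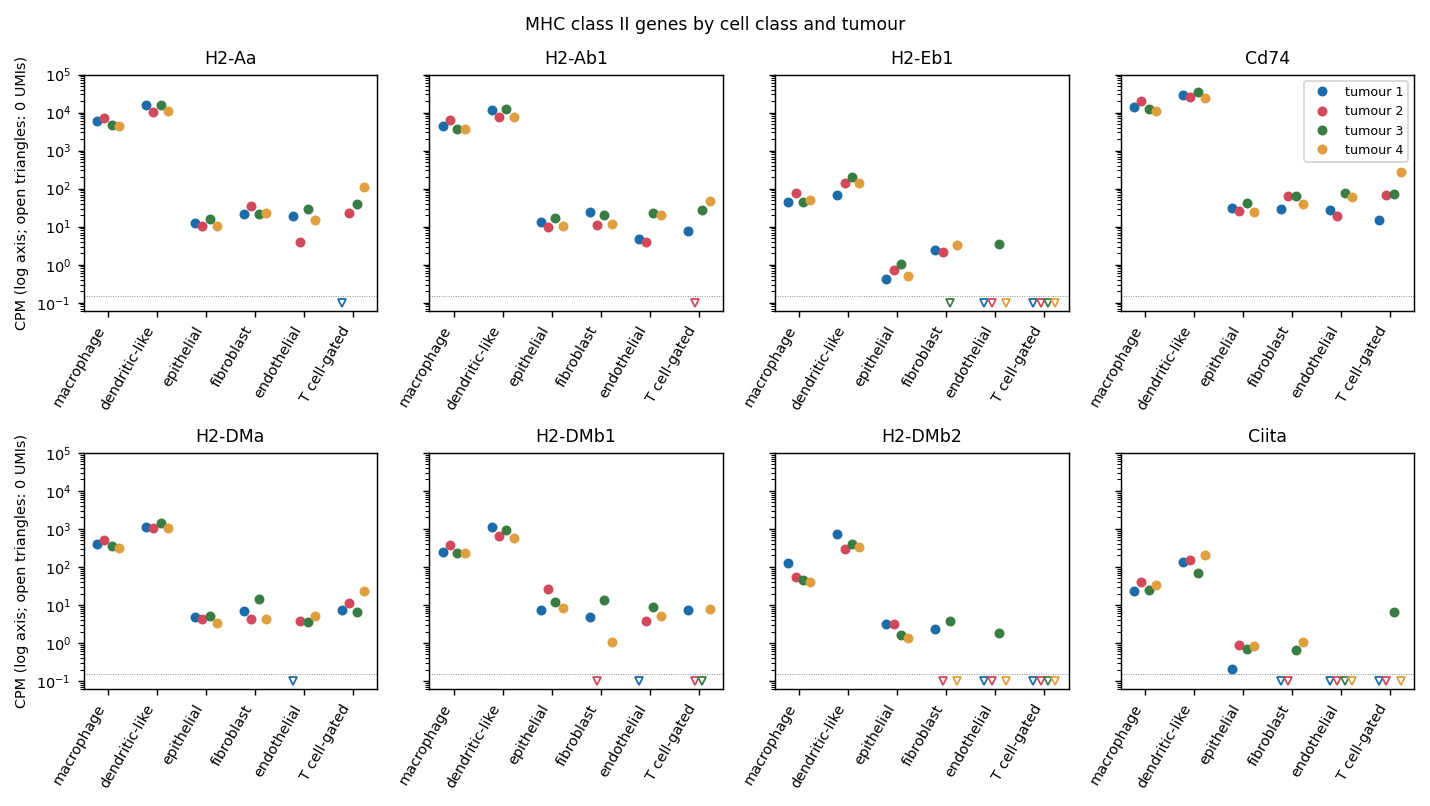
Each panel gives 1 gene, with CPM on a log axis for each cell class and each of the 4 tumours (colours), and open triangles for classes with 0 UMIs. Macrophages and dendritic-like cells stand above the other classes for every gene, and epithelial H2-DMb1 reaches 26.0 CPM in tumour 2 against 232 or more in macrophages.

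Of the other class II pathway genes listed, 22 of 25 names were in the gene table and 13 were tested. Between dendritic-like cells and macrophages 3 rose and 4 fell, where 2.18% of all genes rose and 3.82% fell, with a median log2 fold change of -0.25, the same as over all genes tested (-0.25). H2-Oa, a chain of the H2-DM inhibitor H2-O, had 157 ± 50.1 CPM in dendritic-like cells and 4.52 ± 1.84 in macrophages on the fit's scale. Its log2 fold change was 5.11 ± 0.56 (adjusted p = 4.89e-07). H2-Ea-ps, the E alpha gene that the annotation lists as a pseudogene, rose by 1.32 ± 0.29 (adjusted p = 0.00619), and the lysosomal reductase Ifi30 by 0.91 ± 0.20 (adjusted p = 0.0032). The lysosomal proteases Lgmn (-3.87), Ctsd (-3.10), Ctsb (-2.94) and Ctss (-1.81) were the 4 that were lower. Of 12 interferon gamma genes tested 1 rose, the immunoproteasome subunit Psmb8, and 3 fell, B2m, Irf8 and Ifngr2.

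Outside the myeloid classes class II counts were low in every tumour. In epithelial cells Cd74 was at 31.2, 26.6, 41.5 and 24.6 CPM in tumours 1 to 4, and 7.90% to 12.7% of cells held 1 of its UMIs. In fibroblasts it was at 28.4, 65.0, 64.8 and 39.1 CPM. Endothelial cells had 28.1, 19.4, 75.0 and 59.96 CPM. The ranges of these 3 classes overlap. T cell-gated lymphocytes, the class meant to lack the family, had 15.0, 68.2, 73.9 and 276 CPM of Cd74, the lowest value of these 4 classes in tumour 1 and the highest in tumours 2 and 4.

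H2-Aa was also low throughout. It was at 12.3, 10.4, 16.1 and 10.6 CPM in epithelial cells and at 21.3, 34.7, 22.0 and 22.8 in fibroblasts, which do not overlap. In tumour 2 a single fibroblast held 30 of the 52 UMIs of the classical genes (H2-Aa, H2-Ab1, H2-Eb1 and Cd74), and with cells of the leukocyte list described later left out H2-Aa was at 15.5 CPM there. Endothelial cells had 18.7, 3.87, 28.6 and 15.0 CPM from 4, 1, 16 and 6 UMIs. T cell-gated lymphocytes had 0, 22.7, 40.3 and 107 CPM. The 0 of tumour 1 allows up to 2.97 UMIs per 100 cells at 3 counts. H2-Ab1 ranged from 9.56 to 17.4 CPM in epithelial cells, from 10.8 to 23.7 in fibroblasts and from 3.87 to 23.2 in endothelial cells. H2-Eb1 had 45 UMIs in all 17071 epithelial cells, 5 in fibroblasts, 2 in endothelial cells and 0 in T cell-gated lymphocytes.

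Because a droplet takes up free RNA per droplet and not per UMI of its cell, the counts were also taken per cell. The summed UMIs of H2-Aa, H2-Ab1, H2-Eb1 and Cd74 were 20.1 ± 3.23 per 100 epithelial cells (SD, 3 mice). Fibroblasts had 25.1 ± 12.0, endothelial cells 13.0 ± 10.8 and T cell-gated lymphocytes 26.9 ± 27.3 per 100 cells. The epithelial mean lies within 1 SD of each of the other 3, while macrophages had 6832 ± 3679 and dendritic-like cells 11969 ± 4209 per 100 cells. Median depth ran from 1104 to 3549 UMIs per cell over the 4 classes. When each cell was thinned to 1000 UMIs, 4.41% to 7.33% of epithelial cells held 1 of these UMIs. In fibroblasts it was 5.67% to 7.88%, with intervals that overlap the epithelial one in every tumour. Endothelial cells had 5.31%, 3.81%, 12.5% and 12.2%. Their intervals of 8.71% to 17.2% in tumour 3 and 7.82% to 17.9% in tumour 4 lay above the epithelial 6.40% to 8.36% and 4.19% to 5.53%. Both of these tumours came from mouse 3, and in tumours 1 and 2 the endothelial and epithelial intervals overlapped. T cell-gated lymphocytes had 0%, 15.8%, 18.1% and 17.2%, with intervals above the epithelial one in tumours 2 to 4. Thinning left out 101 epithelial, 34 fibroblast, 44 endothelial and 32 T cell-gated cells, all of tumour 1. Before it, the share of epithelial cells was 13.6% to 22.4%.

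**Figure D2:**
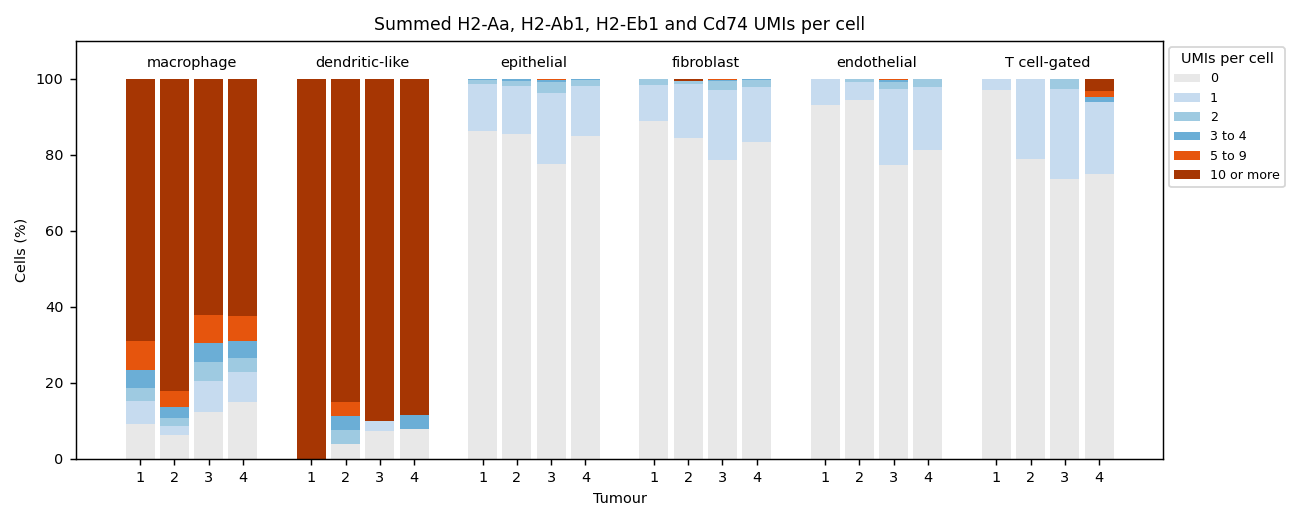
Stacked bars give the share of cells (%) with 0, 1, 2, 3 to 4, 5 to 9 and 10 or more summed UMIs of H2-Aa, H2-Ab1, H2-Eb1 and Cd74, per class and tumour. In macrophages 69.1% to 86.4% of cells held 5 or more, and in epithelial cells 0.0608% to 0.215%.

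Cells with a UMI of a myeloid gene carried far more. Epithelial cells with any UMI of C1qa, C1qb, C1qc or Lyz2 had 445, 1252, 511 and 548 classical class II UMIs per 100 cells in tumours 1 to 4, against 16.9, 20.1, 31.8 and 17.6 without. The macrophage and dendritic-like gates set no limit on epithelial markers, so such a cell can also be counted as myeloid. Among cells with no UMI of C1qa, C1qb, C1qc or Lyz2, 23 of the 17071 epithelial cells held 5 or more classical UMIs, 463 in all. Of these 23 cells 16 held a gene of a longer leukocyte list (15 genes of myeloid, dendritic, B and other leukocytes), against 13.87% of the epithelial cells below 5. Ciita was at 0 in all 23, and 5 of them held an H2-DM UMI. Macrophages held 37.1 CPM of Ciita beside 18673 CPM of Cd74 on the fit's scale. At that ratio 463 classical UMIs would bring few or no Ciita UMIs, so the 0 says little. The 3 fibroblasts with 5 or more classical UMIs each held a gene of the list, against 27.24% of fibroblasts below 5. The 1 endothelial cell, with 8 UMIs, held none. The 3 such T cell-gated lymphocytes came from tumour 4 and carried 41 of its 56 classical UMIs.

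Leaving out every cell with a gene of the longer list lowered the epithelial level to 16.9 classical UMIs per 100 cells and that of fibroblasts to 15.5. Endothelial cells stayed at 13.0 per 100 cells. In T cell-gated lymphocytes, for which Laptm5, Cd52 and Ptprc were taken off the list, the level was 11.5 from only 65 cells. Markers of other leukocytes were also present. The neutrophil genes S100a8 and S100a9 summed to 25.3 to 115 CPM in epithelial cells, 4.73 to 33.7 in fibroblasts and 3.87 to 107 in endothelial cells. The B cell genes Cd79a and Cd79b summed to up to 178 CPM in fibroblasts and were found in 11.5% of cells, while both were at 0 in endothelial cells. Their part in the class II counts was not tested.

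Between the classes without a myeloid UMI few of the 8 genes passed. In fibroblasts against epithelial cells 2 of 8 were higher, H2-Aa by 0.95 ± 0.38 (log2, SE, adjusted p = 0.0355, 3 of 3 mice) and H2-DMa by 0.96 ± 0.38 (adjusted p = 0.0341, 2 of 3 mice). Of all genes tested 53.6% passed in that comparison. H2-Aa passed in 8 of 14 alternative settings and H2-DMa in 10, with adjusted p up to 0.228 and 0.677. H2-DMa did not pass without mouse 3 or without tumour 3, and H2-Aa did not pass without mouse 2, without tumour 4 or without the replicate block. Neither passed with UMIs per cell in place of library scaling, and H2-DMa also did not with the longer list left out.

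No gene of the family passed in endothelial against epithelial cells, where 46% of all genes did and 1 of the 8 had an unadjusted p under 0.05. Cd74 had a log2 difference of 0.35 with a 95% interval of -0.45 to 1.15. Likewise none passed in endothelial cells against fibroblasts, where 33.6% of all genes did and 1 of the 8 had an unadjusted p under 0.05. The interval of Cd74 there was -1.15 to 0.60. DESeq2 called 0 of the 8 in both comparisons. A p that misses the threshold does not show that these classes hold equal levels.

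Against T cell-gated lymphocytes no gene of the family was called higher, where 12.6% of all genes were in epithelial, 19.6% in fibroblast and 13.8% in endothelial cells. With UMIs per cell 4159 genes were higher and 435 lower in epithelial cells, in place of 847 and 845, and H2-DMb1 was then called higher. Epithelial cells were lower for Cd74 (log2 fold change -1.74 ± 0.46, adjusted p = 0.00535) and H2-Aa (-1.87 ± 0.58, adjusted p = 0.0181), where 25.2% of all genes passed. Both were lower in 2 of 3 mice, and neither passed without mouse 3 or without tumour 4, where the 3 cells above lie. Without mouse 3 the difference of H2-Aa was 0.28. In endothelial cells 1 of 8 passed, Cd74 at -1.40 ± 0.52 (adjusted p = 0.0453), where 26.8% of all genes did. This call was lost without mouse 2, without mouse 3 and without tumour 4. In fibroblasts 0 of 8 passed with edgeR and with DESeq2, 1 had an unadjusted p under 0.05, and 37.3% of all genes passed.

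Between epithelial cells and macrophages the fold changes were smaller for H2-DMb1, H2-DMb2 and Ciita than for H2-Aa, H2-Ab1 and Cd74, a difference between genes that was not tested. All 8 genes were lower in epithelial cells than in macrophages, in a comparison added after the data were seen in which 49.7% of all genes passed. Cd74 fell by 9.17 ± 0.39 and H2-Aa by 9.13 ± 0.35 on the log2 scale. H2-DMb1 fell by 4.55 ± 0.27, H2-DMb2 by 4.82 ± 0.25 and Ciita by 5.66 ± 0.34. Between them lay H2-DMa, which fell by 6.72 ± 0.23, and H2-Eb1, which fell by 6.57 ± 0.28. The largest adjusted p of the 8 was 2.8e-13.

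**Figure D3:**
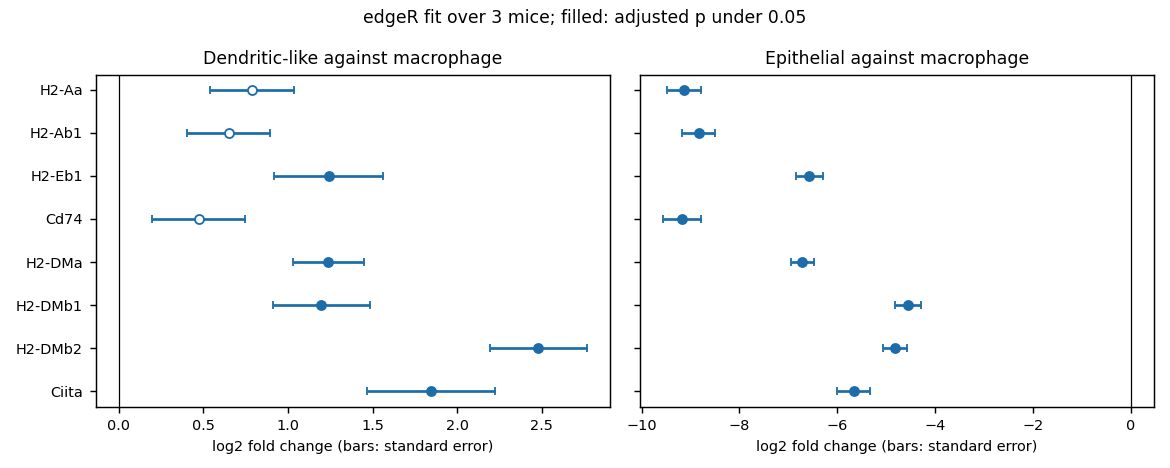
Points are log2 fold changes of the 8 genes from the edgeR fit over 3 mice with standard errors, for dendritic-like cells (left) and epithelial cells (right) against macrophages, filled where the adjusted p is under 0.05. In the right panel H2-DMb1 (-4.55) and Cd74 (-9.17) mark the ends.

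RNA that reaches droplets from 1 source keeps its genes in 1 ratio, so each gene was set against Cd74 of the same cells and divided by that ratio in macrophages of the same tumour. In epithelial cells H2-Aa was at 0.92, 1.12, 1.02 and 1.11 times the macrophage ratio in tumours 1 to 4, and every 95% counting interval held 1. H2-Ab1 was at 1.37, 1.15, 1.39 and 1.26 times, with intervals that lie just above 1 in all 4. H2-Aa thus lay near the macrophage ratio, while H2-Ab1 lay slightly above it in 4 of 4 tumours. These intervals take UMIs as independent, yet single epithelial cells held up to 121 classical UMIs in tumour 2 and 117 in tumour 3. The intervals can therefore be too narrow, and the ratios were not taken without such cells.

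H2-DMb1 did not. It was at 13.4, 51.9, 15.3 and 16.6 times the macrophage ratio in epithelial cells. In tumour 2 there were 767 H2-DMb1 UMIs where the macrophage ratio would give 14.8, and the interval of the ratio was 45.6 to 59.0. H2-DMb2 was at 10.9, 46.2, 10.7 and 15.2 times. For both genes tumour 2 stood above the other 3 tumours, whose intervals overlap.

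H2-DMa was at 5.43, 6.66, 4.34 and 4.73 times the macrophage ratio, from 48 to 130 UMIs per tumour. H2-Eb1 was at 4.04, 7.11, 6.73 and 4.63 times, from 4 to 21 UMIs. Ciita had 2, 26, 8 and 13 UMIs in epithelial cells, 3.90, 16.8, 8.28 and 11.6 times the ratio, and the interval of tumour 1 reached below 1. All 5 of these genes were thus above the macrophage ratio in 4 of 4 tumours. In dendritic-like cells the ratios were smaller, at 2.13, 1.39, 1.42 and 1.18 times for H2-DMb1, the last with an interval that held 1, and 2.74, 4.61, 3.13 and 3.78 for H2-DMb2.

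Fibroblasts and endothelial cells could be read this way mainly in tumour 3, where they held most UMIs. Fibroblasts of tumour 3 had H2-DMb1 at 10.97 times the macrophage ratio (interval 6.47 to 17.8, 21 UMIs) and H2-DMa at 7.72 times (4.61 to 12.4). Endothelial cells of tumour 3 had H2-DMb1 at 6.22 times (1.92 to 15.8, 5 UMIs). A ratio above that of macrophages was therefore not seen in epithelial cells alone.

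**Figure D4:**
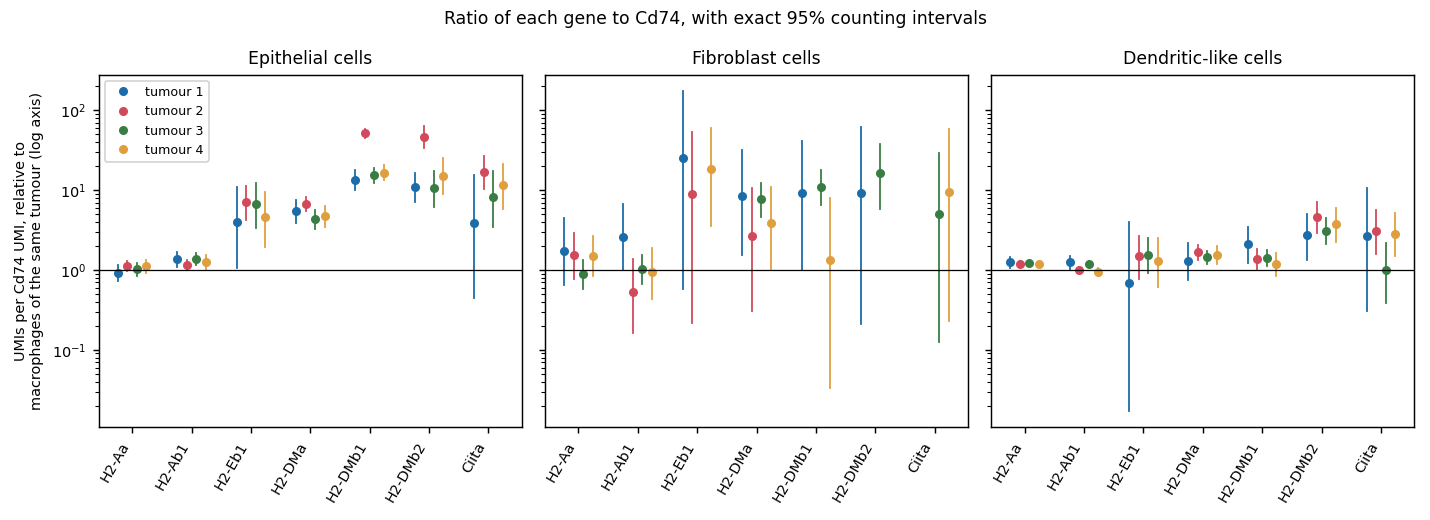
The ratio of each gene to Cd74, relative to macrophages of the same tumour, is on a log axis with exact 95% counting intervals, and the line marks the macrophage ratio (classes with 0 UMIs have no point). In epithelial cells H2-Aa lies at 0.92 to 1.12 and H2-DMb1 at 13.4 to 51.9.

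Relative to myeloid genes the classical UMIs were lower in epithelial cells than in macrophages in 4 of 4 tumours. Classical class II UMIs per UMI of 8 myeloid genes that no gate used were 1.13, 1.72, 1.04 and 0.762 in epithelial cells of tumours 1 to 4. Macrophages had 1.65, 2.73, 1.49 and 1.55. The median was 1.03 in fibroblasts and 0.934 in endothelial cells, and 4.98 in dendritic-like cells. T cell-gated lymphocytes express some of these genes themselves, so their ratio was not read.

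By level, epithelial H2-DMb1 was highest in tumour 2. It was at 7.54, 26.0, 12.1 and 8.42 CPM in epithelial cells of tumours 1 to 4. Fibroblasts had 4.73, 0, 13.6 and 1.09 CPM, and endothelial cells 0, 3.87, 8.93 and 5.00. In tumour 2 the epithelial interval of 24.2 to 27.9 CPM lay above those of fibroblasts (up to 7.996) and endothelial cells (up to 21.6), and in tumour 4 above that of fibroblasts. T cell-gated lymphocytes held 2 H2-DMb1 UMIs in 275 cells, and their 0 of tumour 2 allows up to 34.1 CPM at 3 counts. The log2 difference from epithelial cells was -1.50 ± 0.66 in endothelial cells (adjusted p = 0.0643) and -0.98 ± 0.46 in fibroblasts (adjusted p = 0.0769), lower in 3 of 3 mice in both. These passed in 7 and in 6 of 14 alternative settings. Epithelial cells against T cell-gated lymphocytes gave 1.63 ± 1.18 (adjusted p = 0.347).

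The share of epithelial cells with an H2-DMb1 UMI was 2.16%, 10.1%, 4.62% and 3.08%. After thinning to 1000 UMIs it was 1.00%, 2.89%, 1.22% and 0.935%. In tumour 2 the thinned interval was 2.51% to 3.31% in epithelial cells, beside upper bounds of 2.58% for 0 of 141 fibroblasts, 5.19% for endothelial cells and 9.25% for 0 of 38 T cell-gated lymphocytes. The difference in shares was not tested. Macrophages of tumour 2 were also the highest in H2-DMb1, at 387 CPM against 232 to 249.

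**Figure D5:**
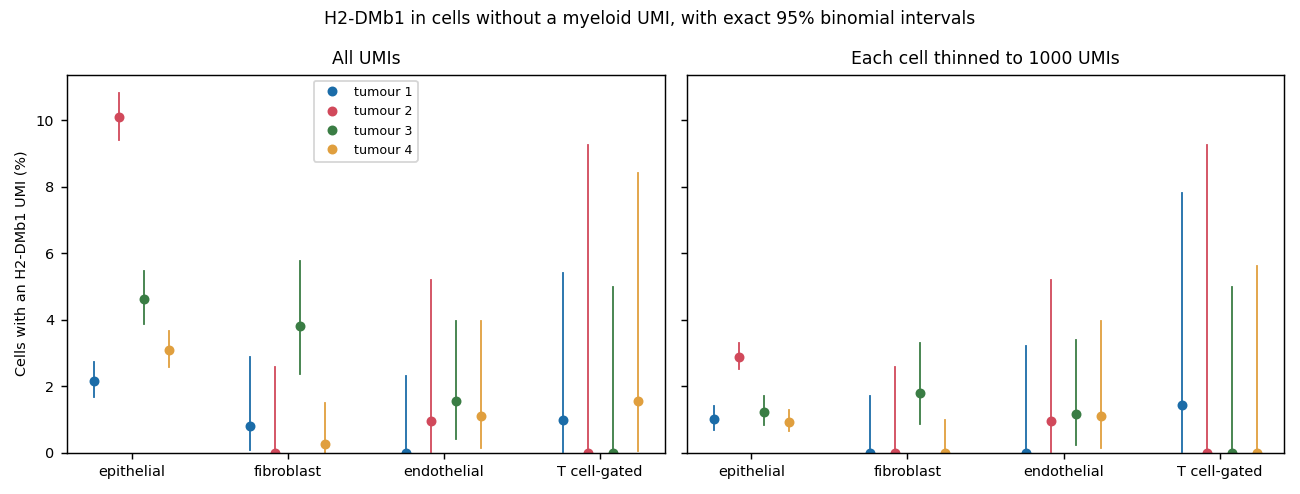
Points are the share of cells (%) with an H2-DMb1 UMI in 4 classes without a myeloid UMI, with exact 95% binomial intervals, for all UMIs (left) and for cells thinned to 1000 UMIs (right). Epithelial cells of tumour 2 stand at 10.1% before and 2.89% after thinning.

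Within epithelial cells H2-DMb1 and H2-DMb2 were found together. Of the H2-DMb2-positive cells 29 of 30, 84 of 96, 14 of 18 and 17 of 21 also held H2-DMb1, where independence gives 0.647, 9.69, 0.831 and 0.646. In macrophages the overlap was 112 of 131, 73 of 79, 94 of 120 and 67 of 77. The genes are close paralogues, and whether reads were split between them was not tested, so H2-DMb2 is uncertain as a separate count. H2-DMb1 was in 2.692%, 10.58%, 4.494% and 5.398% of Cd74-positive epithelial cells of tumours 1 to 4 and in 2.112%, 10.05%, 4.633% and 2.856% of the others. In macrophages the same shares were 30.3%, 65.76%, 45.21% and 42.52% against 16.67%, 20.51%, 16.67% and 10.95%. Epithelial cells with at least 4 UMIs of the basal keratins Krt14 and Krt5 had 16.9, 14.7, 8.21 and 8.03 CPM of H2-DMb1, from 2 to 7 UMIs, against 7.42, 26.2, 12.4 and 8.43 CPM in the other epithelial cells. The intervals of these groups overlap in all 4 tumours.

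The pathway and interferon lists were also compared between the classes without a myeloid UMI. In endothelial against epithelial cells 3 of 13 pathway genes rose and 2 fell, and 9 of 12 interferon genes rose and 1 fell, where 22.6% of all genes rose and 23.4% fell. The pathway share is thus near that of all genes. Their medians were -0.02 and 1.04 on the log2 scale, beside -0.08 over all genes. Irf8, an interferon-responsive transcription factor, had 52.0 ± 6.10 CPM in endothelial and 0.813 ± 0.337 in epithelial cells on the fit's scale, a log2 fold change of 5.94 ± 0.43 (adjusted p = 7.88e-12). Ifngr1, the ligand-binding chain of the interferon gamma receptor, rose by 1.91 ± 0.23 (adjusted p = 7.85e-08). Cxcl10, a chemokine induced by interferon, rose by 7.90 ± 0.77, with 79.0 ± 114 CPM in endothelial cells, so its level varied widely between mice. The protease Lgmn rose by 4.15 ± 0.19, whereas Ifi30 fell by 2.37 ± 0.31.

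In fibroblasts against epithelial cells 3 of 13 pathway genes rose and 0 fell, where 26.6% of all genes rose and 26.9% fell. The 3 were the proteases Lgmn (3.82), Ctsl (1.56) and Ctsb (1.31). Of the interferon genes 7 of 12 rose and 2 fell, with a median of 0.71. Ifngr1 rose by 2.56 ± 0.19 and B2m, the light chain of MHC class I, by 0.76 ± 0.21, while the immunoproteasome subunits Psmb9 (-1.25) and Psmb8 (-0.97) were lower. In endothelial cells against fibroblasts 1 pathway gene rose and 3 fell, and 5 interferon genes rose and 2 fell, where 16% of all genes rose and 17.6% fell. Irf8 led with a log2 fold change of 3.85 ± 0.55.

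Against T cell-gated lymphocytes the pathway list moved both ways. In epithelial, fibroblast and endothelial cells alike 3 of 13 rose and 2 fell, where 12.6% to 19.6% of all genes rose and 12.6% to 17.8% fell, Ctsb and Ctsl among the 3 and Ctss among the 2 each time. Of the 12 interferon genes 7 were lower in epithelial, 5 in fibroblast and 4 in endothelial cells, B2m among them each time, at -2.28, -1.53 and -1.34 on the log2 scale. The receptor chain Ifngr2 rose in epithelial (1.70) and fibroblast cells (2.26). Against macrophages 10 of 13 pathway genes and 9 of 12 interferon genes were lower in epithelial cells, where 26.4% of all genes were. The protease Ctss fell by 9.10 ± 0.27 and the costimulator Cd86 by 8.25 ± 0.28.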

How the data were processed

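The authors deposited a matrix of raw UMI counts for each of the 4 tumours, and FastQC and Cell Ranger 2.2.0 with mm10 (GRCm38) are named per the submitters' processing notes. Their cell-calling settings are not given in the sources used here. Of 36162 barcodes 36138 were used, those showing 300 or more genes and less than 15% mitochondrial UMIs. No doublet caller was run, and leaving out the 5% of barcodes with most UMIs is an alternative.

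Classes were gated on marker sums: at least 4 UMIs summed over 5 epithelial markers, 5 over 4 fibroblast markers, 3 over 6 endothelial markers or 2 over 4 T cell markers, with limits on the other classes' markers. The members, gates, lists and comparisons were chosen with earlier results of these data known. Epithelial cells against macrophages, the ratios to Cd74, the natural killer genes and the descriptions of H2-DMb1-positive cells were added after the data were seen.

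UMIs were summed per mouse and class, with tumours 3 and 4 of mouse 3 together. One edgeR 4.0.16 model took all 18 sums, with mouse as block, TMM factors, genes kept by filterByExpr and the quasi-likelihood F test. Benjamini-Hochberg adjustment ran across the 6705 genes tested, with calls at 0.05. Sums of 1 mouse come from the same animal, which is the pairing; the 3 mice are separate animals. All 8 genes passed the filter, which counts every class, so a gene high in macrophages passes whatever its level elsewhere. CPM per tumour are scaled to the UMI total of the class, while the fit's scale also has TMM factors. Intervals at 95% are exact (Poisson, Clopper-Pearson or conditional) and cover counting error only, as does the limit of 3 counts for a 0. Pathway and interferon genes are named where they passed, moved alike in 3 of 3 mice and reached 20 CPM, up to 4 highest and 4 lowest. Alternatives used DESeq2 1.42.0, R 4.3.3 and other gates. Some genes of the lists are not reported here. Sequences are from RefSeq and positions from GENCODE.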

Additional observations from a re-analysis of the deposited data

Results flagged for a closer look

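Levels were compared over the 4 tumours within each class for 45 gene and class pairs, and 6 pairs had 1 tumour far from the other 3, where chance gives about 1 in 20 for groups of independent values, though tumours 3 and 4 share a mouse. H2-DMb1 in macrophages was at 387 CPM in tumour 2 and at 232 to 249 in the others. H2-DMb2 in macrophages was at 125 CPM in tumour 1, against 40.7 to 54.4. H2-Aa in fibroblasts was at 34.7 CPM in tumour 2 (16 UMIs), against 21.3 to 22.8. With cells of the longer leukocyte list left out it was 15.5 CPM there (6 UMIs). The remaining 3 rest on 1 or 2 UMIs in tumour 3 with 0 in the other tumours, which meets the criterion by construction: Ciita in T cell-gated lymphocytes at 6.72 CPM, H2-DMb2 in endothelial cells at 1.79 CPM and H2-Eb1 in endothelial cells at 3.57 CPM.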

How the results depend on the processing

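Of 896 values of single genes under the alternatives, 805 kept their direction and side of the threshold or passed in neither setting, 46 passed newly, 40 no longer passed and 5 changed sign with a call in 1 of the settings. The longer list left out means cells with any of its genes were removed. The 5 are H2-DMa in endothelial against epithelial cells (1.25) and, against T cell-gated lymphocytes, H2-DMb1 in fibroblasts (-1.65) and H2-Eb1 in epithelial cells (-3.18), all with cells holding myeloid UMIs let in. The others are Cd74 in endothelial cells against T cell-gated lymphocytes with the longer list left out (0.26) and H2-Aa in epithelial cells against them without mouse 3 (0.28, within a range of -2.36 to 0.28 over the mice and tumours left out). The cause was not tested.

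The number of the 8 genes called moved as follows. Endothelial against epithelial cells gave 0, and 1 (H2-DMb1, lower) without a count filter, with stricter gates, with the longer list left out and without the top 5% of barcodes, 2 with UMIs per cell in place of library scaling and 5 with myeloid UMIs let in. Fibroblast against epithelial cells gave 2, 4 without a filter, 1 without the replicate block (H2-DMa) and 1 with UMIs per cell (H2-DMb1, lower, with H2-Aa and H2-DMa both lost). Endothelial cells against fibroblasts gave 0, and 1 with UMIs per cell. Endothelial cells against T cell-gated lymphocytes gave 1, 2 without a filter, and 0 with DESeq2 size factors, the DESeq2 Wald test, no replicate block, stricter gates, myeloid UMIs let in, the longer list left out and UMIs per cell. Fibroblasts against them gave 0, 1 without a filter and 4 with myeloid UMIs let in. Epithelial cells against them gave 2, 0 with stricter gates or the longer list left out, 5 with myeloid UMIs let in and 1 (H2-DMb1, higher) with UMIs per cell. Leaving out a mouse or tumour gave 0 to 1, 1 to 3, 0 to 0, 0 to 2, 0 to 1 and 0 to 2 in these 6 comparisons, 1 to 7 for dendritic-like cells against macrophages and 8 to 8 for epithelial cells against macrophages. Dendritic-like cells against macrophages gave 5, and 7 with DESeq2 size factors or with UMIs per cell. This count was 6 without a count filter or with the longer list left out. It was 4 with the DESeq2 Wald test, with stricter gates or without the replicate block.

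Classical UMIs per 100 cells were 16.9 in epithelial cells with the longer list left out, and 6.21 in epithelial cells and 8.57 in fibroblasts after thinning to 1000 UMIs, which lowers counts by construction. DESeq2 size factors moved the median of all genes from -0.07 to 0.16 in fibroblast against epithelial cells and the split of calls from 1785 higher and 1806 lower to 2269 and 1217. In endothelial against epithelial cells the split moved from 1513 and 1571 to 1767 and 1263, and against T cell-gated lymphocytes from 924 and 875 to 1129 and 725 in endothelial cells and from 1312 and 1191 to 1661 and 893 in fibroblasts. With the DESeq2 Wald test dendritic-like cells against macrophages went from 146 and 256 to 204 and 168. UMIs per cell moved the median of all genes from -0.08 to -0.74 in endothelial against epithelial cells and from 0.14 to 1.20 in epithelial cells against T cell-gated lymphocytes, and the splits to 881 and 3585 and to 4159 and 435. Under it fibroblast against epithelial cells gave 1147 and 3434, and fibroblasts and endothelial cells against T cell-gated lymphocytes 2167 and 571, and 1461 and 487. Epithelial cells against macrophages went from 1564 and 1768 to 4383 and 1073. Depth limits Ciita, H2-Eb1 and H2-DMb2 outside epithelial and myeloid cells, where counts of 0 to 6 UMIs per tumour decide the level.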

Other observations

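Mural-gated cells without a myeloid UMI (Rgs5, Notch3, Higd1b; 170 cells) held 154 ± 85.2 CPM of the summed classical class II genes (SD, 3 mice), from 73 UMIs. Of these 23 lay in 1 cell of tumour 3 and 22 in 1 cell of tumour 4, and with cells of the longer leukocyte list left out the level was 98.8 ± 27.0 CPM, from 26 UMIs. The 3 cells that passed the B cell gate held 31 such UMIs.

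Among 6697 genes reaching 20 CPM in any class, those most like the summed class II level over the 18 sums of all 6 classes were Spi1 (Pearson r 0.99), Irf5, Pld4, Igsf6 and H2-Ea-ps (0.98 each). These sums share mice and libraries, and the macrophage and dendritic-like sums set the range. Over the 12 sums of the 4 classes without a myeloid UMI, and among 6538 genes, they were Emsy (0.90), Pdrg1 (0.82), Sharpin (0.82), Hdac4 (0.81) and Preb (0.81). Spi1, which encodes a myeloid transcription factor, was not among them. These 4 classes were gated to hold no C1qa, C1qb, C1qc or Lyz2 UMI, which keeps myeloid genes low. The absence of Spi1 is therefore no result. The genes named over these 12 sums were picked for the highest r of 6538, so their high r is no result either.

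Epithelial cells with an H2-DMb1 UMI were set beside those without, over 1047 genes at 100 CPM or more, as a description chosen after the data were seen. Their median depth was higher, 2972, 4112, 4346 and 3920 UMIs in tumours 1 to 4 against 2569, 3412, 3534 and 3149. Spp1, a secreted phosphoprotein, had 3222, 2093, 3368 and 5606 CPM with and 1859, 1532, 2171 and 3123 CPM without. Bglap3, an osteocalcin-like gene, had 1330, 671.9, 539.8 and 358.2 CPM with and 905.9, 456.7, 235.7 and 198.3 CPM without. Stmn1, a tubulin-binding protein of dividing cells, had 111.6, 148.5, 176.6 and 151.5 CPM with and 230.3, 209.5, 309.9 and 194.3 CPM without. These genes were picked for moving alike in all 4 tumours, so that agreement is no result. The part of depth in these values was not tested.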
